A study of Homo sapiens with 5 samples.

Results

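The peaks described here are those of the target labelled SMA4 that shared at least 1 bp with a RUNX1 peak and no base with an H3K4me3 peak in MOLT-4 cells. They are called RUNX1-only SMA4 peaks below and numbered 662 of 1475 SMA4 peaks on chromosomes 1 to 22 and X (44.9%). The set was chosen by the positions of the peaks in these same 3 lists, so this share is a description and supports nothing further. Of the other SMA4 peaks, 310 overlapped both RUNX1 and H3K4me3, 492 overlapped neither and 11 overlapped H3K4me3 alone.

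MOLT-4 is an established cell line from a human T cell acute lymphoblastic leukaemia, and the cells were grown in culture with no treatment that would set groups apart. Chromatin was profiled by CUT&RUN, in which an antibody tethers micrococcal nuclease, fused to protein A/G, to its target and the released fragments are sequenced. The series has 5 libraries, 1 for each of SMA4, RUNX1 and H3K4me3 and 2 IgG controls titled as input, whose peaks were not used here. Each antibody has 1 library without replicates, so every value below describes these libraries and no test between groups was made. The label does not spell out what SMA4 stands for, and the name is used as given. The SMA4 peaks belong to a different batch and were called by a different pipeline than those of RUNX1 and H3K4me3, so antibody, batch and pipeline cannot be told apart in any difference between lists.

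RUNX1 is a DNA-binding transcription factor of the runt-domain family that, with its partner CBFB, is required for blood stem cells and for T cell development. It binds at promoters and also at enhancers, regulatory elements that can lie far from the gene they act on. H3K4me3 is a histone modification found at promoters that are active or poised, whereas active enhancers typically carry little of it. RUNX1 peaks without H3K4me3 are therefore candidate distal elements, although the peak lists do not show enhancer marks or activity. An hg19 gene annotation and genome sequence were not used here, so the peaks are given by position and none is tied to a named gene or a motif.

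The first question was how far the RUNX1-only SMA4 peaks lay from H3K4me3. Most were far from the mark. The median distance to the nearest H3K4me3 peak, measured edge to edge, was 95.8 kb (95% interval of the median 79.8 to 114 kb, quartiles 25.2 and 280 kb). Of the 662 peaks, 569 lay 10 kb or more away (86.0%, 95% Wilson interval 83.1 to 88.4%). Among the 24287 RUNX1 peaks outside H3K4me3 that carried no SMA4, the same share was 81.0%. The first share is thus close to this background, and the 2 sets differed more at longer distances. At 100 to 1000 kb lay 299 RUNX1-only SMA4 peaks (45.2%, 95% interval 41.4 to 49.0%) against 31.3% of the RUNX1 peaks without SMA4. Beyond 1000 kb lay 27 of them (4.08%, 95% interval 2.82 to 5.87%) against 1.18%. The median distance of the RUNX1 peaks without SMA4, measured from their own edges, was 50.1 kb (95% interval 48.8 to 51.4 kb). Measured in the same way, RUNX1 peaks outside H3K4me3 that held a RUNX1-only SMA4 peak gave 108 kb (95% interval 91.4 to 132 kb, n = 602). SMA4 peaks that overlapped neither RUNX1 nor H3K4me3 lay farther still, at a median of 270 kb (95% interval 225 to 316 kb), with 64 of 492 beyond 1000 kb. The intervals reflect counting error alone and treat neighbouring peaks as independent, which they are not.

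**Figure D1:**
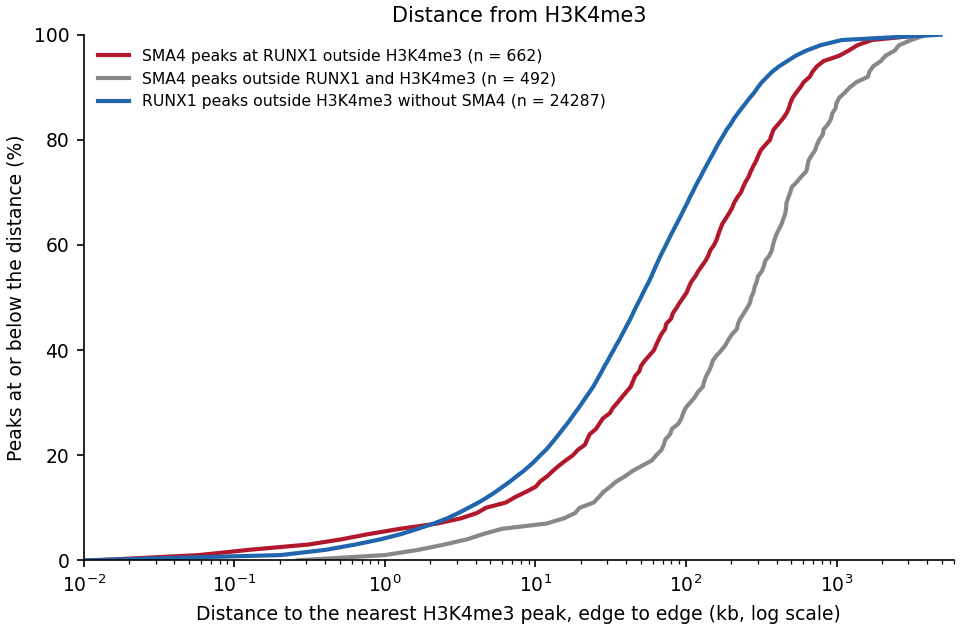
Cumulative share of peaks (vertical axis, %) at or below each distance to the nearest H3K4me3 peak (horizontal axis, kb, log scale; distances under 0.01 kb are drawn at 0.01) for 3 sets of peaks. The curve of the 662 RUNX1-only SMA4 peaks (red, median 95.8 kb) runs between that of RUNX1 peaks without SMA4 (blue, median 50.1 kb) and that of SMA4 peaks outside both lists (grey, median 270 kb) over most of the range.

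A smaller set lay close to the mark. Within 1 kb of H3K4me3 were 38 RUNX1-only SMA4 peaks (5.74%, 95% interval 4.21 to 7.78%), and another 55 lay at 1 to 10 kb (8.31%). For RUNX1 peaks outside H3K4me3 without SMA4, measured from their own edges, these shares were 4.24% and 14.8%. SMA4 peaks outside both lists gave 1.02% and 5.89%. Among the 38, 33 sat in a RUNX1 peak that itself reached into H3K4me3. In all, 39 of the 662 (5.89%) sat in such a RUNX1 peak, so they are outside the mark only as far as the narrower SMA4 peak is concerned. The remaining 623 lay in RUNX1 peaks that also avoided the mark. The closest was a 158 bp peak on chromosome 9 from 5627156 to 5627313, which lay 0.012 kb from a 457 bp H3K4me3 peak. The next 4 were 0.027 to 0.035 kb away and lay on chromosomes 5, 2, 16 and 6. All 5 sat in RUNX1 peaks that also overlapped H3K4me3.

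The H3K4me3 peaks beside these close members were mostly narrow. Within 1 kb, the nearest H3K4me3 peak had a median width of 289 bp (95% interval 251 to 824 bp, n = 38), against 544 bp (95% interval 486 to 613 bp) for RUNX1 peaks without SMA4 at the same distance. The first interval is wide and overlaps the second. At 1 to 10 kb the medians were 348 bp (95% interval 275 to 454 bp, n = 55) and 666 bp (95% interval 611 to 712 bp). These intervals did not overlap. However, some H3K4me3 peaks were nearest to several members and were counted each time, so the intervals are too narrow to settle a difference. At 10 to 100 kb they were 833 bp and 953 bp, with overlapping intervals. The H3K4me3 peaks close to SMA4 peaks outside both lists were narrow as well. Their median width was 235 bp within 1 kb (n = 5). At 1 to 10 kb it was 238 bp (95% interval 222 to 654 bp, n = 29). Narrow H3K4me3 peaks nearby were thus not particular to RUNX1-only SMA4 peaks. Over the whole H3K4me3 list the median width was 938 bp. The nearest H3K4me3 peak had the minimum width of its list, 179 bp, for 69 of the 662 peaks (10.4%). This share was not computed for other sets. For SMA4 peaks outside both lists the 10th percentile of this width was 179 bp as well. Peak width depends on the caller and on signal, and no fold or score came with the lists, so narrow peaks cannot be ranked by strength.

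At the other end, the peak farthest from H3K4me3 was a 206 bp peak on chromosome 7 from 81516540 to 81516745, 3850 kb from the mark. It lay wholly within a RUNX1 peak of 1136 bp, with no other RUNX1 peak within 50 kb. The next 4 lay 2246 to 2571 kb away. They were on chromosome 7 from 13889832 to 13890001, chromosome 4 from 65749117 to 65749449, chromosome 13 from 89572438 to 89572585 and chromosome 15 from 20189484 to 20189668. In 4 of these 5, the member lay wholly inside its RUNX1 peak and that was the sole RUNX1 peak within 50 kb. Sequence prone to mapping artefacts was not removed, which bears on such isolated peaks.

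RUNX1-only SMA4 peaks were narrow relative to the RUNX1 peaks that held them. Their median width was 230 bp (95% interval 220 to 245 bp, quartiles 179 and 333 bp, range 141 to 1176 bp). SMA4 peaks at RUNX1 and H3K4me3 had a median of 218 bp (95% interval 206 to 229 bp), and those outside both lists 210 bp (95% interval 202 to 220 bp). The RUNX1 peaks at the 662 peaks had a median width of 965 bp (95% interval 916 to 1033 bp, quartiles 635 and 1585 bp). An SMA4 peak thus spanned a median of 24.4% of the width of its RUNX1 peak, and 24 SMA4 peaks (3.63%) were wider than theirs. The widths of the 2 peaks were almost unrelated across the set (Spearman's rho = 0.09, n = 662, given as a description).

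The widest RUNX1-only SMA4 peak spanned 1176 bp on chromosome 2 from 196424235 to 196425410. It lay wholly inside a RUNX1 peak of 1634 bp and 96.1 kb from H3K4me3. The second, 933 bp on chromosome 3 from 179673787 to 179674719, lay in a RUNX1 peak of 4930 bp, the tenth entry when members were ordered by RUNX1 width. The third, 863 bp on chromosome 5 from 51800607 to 51801469, was 68.1% inside a RUNX1 peak of 1252 bp. The 10 widest ranged from 734 to 1176 bp, and 6 of them lay wholly inside RUNX1. Their RUNX1 peaks ranged from 225 to 4930 bp. On chromosome 6 from 22954905 to 22955638 a 734 bp SMA4 peak surrounded a RUNX1 peak of 225 bp, and 30.7% of it lay inside RUNX1. Of these 10, 5 lay 100 kb or more from H3K4me3 and 2 lay within 1 kb.

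The next question was where inside the RUNX1 peak the SMA4 peak sat. Most midpoints of SMA4 peaks lay in the central part of the RUNX1 peak. The rule requires overlap, and the midpoint of a peak wholly inside RUNX1 cannot reach its edge. Part of this position is therefore set in advance. Shares under even placement were not computed, so the values describe position and show no preference for the centre. The distance between the midpoints was a median of 131 bp (95% interval 116 to 144 bp, quartiles 57.8 and 276 bp). On a scale on which 0 is the centre of the RUNX1 peak and 1 its edge, the median was 0.28 (95% interval 0.24 to 0.31). The midpoint fell in the central 50% of the RUNX1 peak for 494 of 662 (74.6%, 95% interval 71.2 to 77.8%) and in the central 20% for 240 (36.3%, 95% interval 32.7 to 40.0%). It fell in the outer 20% for 32 (4.83%) and beyond the edge for another 32 (4.83%). Both sides were used alike, with 337 midpoints (50.9%, 95% interval 47.1 to 54.7%) toward the higher coordinate. SMA4 peaks at RUNX1 and H3K4me3 gave nearly the same values, with a median of 0.29 (95% interval 0.26 to 0.33) and 75.5% in the central 50% (95% interval 70.4 to 79.9%). RUNX1 summits were not given in the lists, so the centre is that of the called peak.

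**Figure D2:**
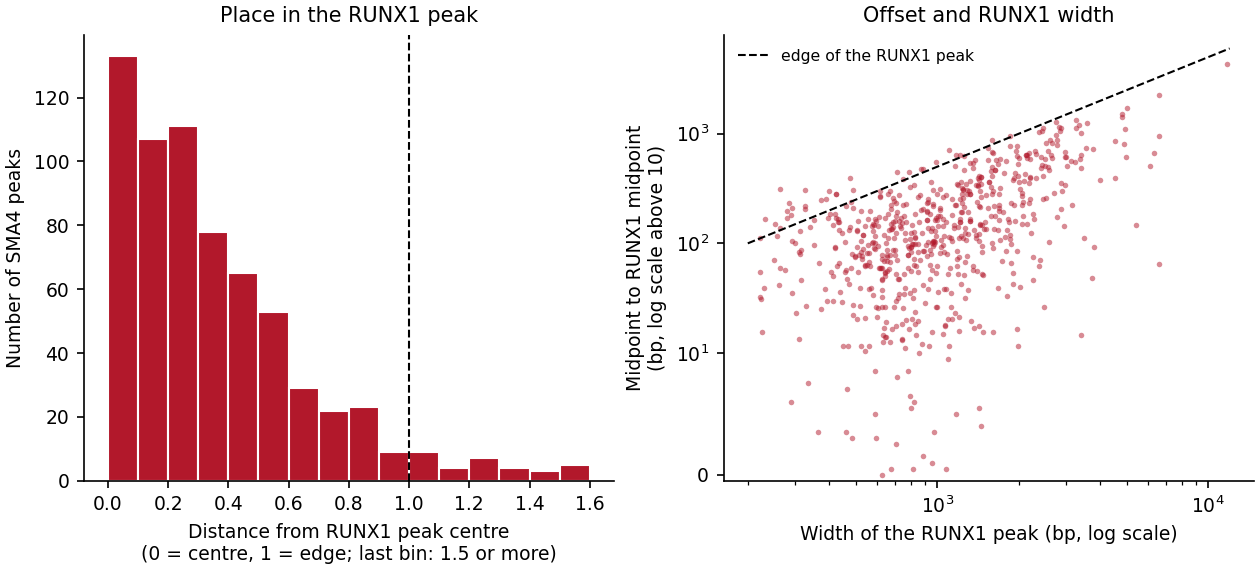
Left, number of RUNX1-only SMA4 peaks (vertical axis) by distance of their midpoint from the centre of the RUNX1 peak (horizontal axis, 0 centre, 1 edge, dashed line). Right, the same distance in bp (vertical axis, log scale above 10) against RUNX1 peak width (horizontal axis, bp, log scale), 1 point per SMA4 peak. Counts fall from the centre outward, and 32 of 662 midpoints lie beyond the edge.

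Most overlaps were complete. Of the 662, 547 lay wholly inside RUNX1 (82.6%, 95% interval 79.6 to 85.3%) and 36 had under 50% of their width inside it (5.44%). Just inside the rule, the smallest overlap was 6 bp, for a 313 bp peak on chromosome 18 from 3716406 to 3716718. The next had 7 bp, 9 bp, 10 bp and 31 bp in common with RUNX1, and 14 peaks shared under 50 bp. Just outside it, the SMA4 peak nearest to RUNX1 without touching it had a gap of 6 bp, on chromosome 2 from 133058277 to 133058427. A further 4 had gaps of 10 to 25 bp, and 15 SMA4 peaks outside both lists lay within 100 bp of RUNX1. On the H3K4me3 side, the least overlap that removed a peak was 4 bp, for a peak on chromosome 8 from 66863943 to 66864396, while 10 kept peaks lay within 100 bp of the mark.

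Position differed with the width of the RUNX1 peak, which also sets how much room an SMA4 peak has inside it. In the narrowest of 4 classes of equal size (221 to 635 bp), 53.6% of the SMA4 peaks lay wholly inside RUNX1, 63.3% had their midpoint in the central 50%, and they spanned a median of 51.5% of the RUNX1 width. In the second class (636 to 964 bp) 87.3% lay wholly inside and 83.6% were central, with a median midpoint distance of 87.5 bp. In the third (965 to 1581 bp) 82.4% were central, at a median of 147 bp. In the widest (1586 to 11712 bp) 69.3% were central, and the median distance was 400.0 bp. The widest RUNX1 peaks thus held SMA4 peaks farther from their centre in bp and, relative to the middle classes, in share of their width. The median SMA4 width in the 4 classes was 238, 201, 233 and 256 bp.

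Among the 10 members in the widest RUNX1 peaks, all 10 lay wholly inside and 7 had their midpoint in the central 50%. The widest, 11712 bp on chromosome 9 from 132646407 to 132658118, held a 256 bp SMA4 peak whose midpoint was 4339 bp from the RUNX1 midpoint and which lay 0.067 kb from a 179 bp H3K4me3 peak. A RUNX1 peak of 6562 bp on chromosome 2 from 182168396 to 182174957 held 3 SMA4 peaks. In contrast, a RUNX1 peak of 6116 bp on chromosome 4 from 109278853 to 109284968 lay 187 kb from H3K4me3, as measured from its 696 bp SMA4 peak. On chromosome 14, a RUNX1 peak of 5395 bp from 98637385 to 98642779 held a 401 bp SMA4 peak 146 bp from its midpoint, with 19 RUNX1 peaks within 50 kb and a 4119 bp H3K4me3 peak 6.90 kb away. For 5 of the 10 members, the RUNX1 peak also overlapped H3K4me3. These 5 include the 3 members of the 6562 bp RUNX1 peak, which is counted once for each member here and in the counts above.

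RUNX1 peaks were then taken as the unit, to see which of those outside H3K4me3 held a RUNX1-only SMA4 peak. Of 24890 such RUNX1 peaks, 602 did (2.42%). The share rose with RUNX1 width, from 0.513% (95% interval 0.364 to 0.724%) in the narrowest of 4 classes, up to 320 bp, to 1.16%, 2.29% and 5.72% (95% interval 5.17 to 6.33%) in the widest, over 792 bp. A wider peak also meets other peaks more readily. RUNX1 peaks with a member had a median width of 922 bp (95% interval 849 to 971 bp) and those without SMA4 521 bp (95% interval 516 to 526 bp).

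The share also rose with distance from H3K4me3. It was 0.483% within 1 kb (5 of 1036, 95% interval 0.206 to 1.12%), 1.37% at 1 to 10 kb (50 of 3641, 95% interval 1.04 to 1.81%) and 1.94% at 10 to 100 kb (233 of 12017, 95% interval 1.71 to 2.20%). It reached 3.64% at 100 to 1000 kb (287 of 7882, 95% interval 3.25 to 4.08%) and 8.60% beyond 1000 kb (27 of 314, 95% interval 5.98 to 12.2%). RUNX1 peaks in the 5 distance classes had similar median widths from 1 kb outward, between 494 and 545 bp, and a median of 369 bp within 1 kb. RUNX1 peaks that touched H3K4me3 were left out of these shares. They held 33 of the 38 members within 1 kb of the mark and 6 of the 55 at 1 to 10 kb. The low shares near the mark are therefore in part set by this choice.

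The order over distance was the same within each class of RUNX1 width. In the widest class the share went from 2.96% within 1 kb through 3.64% at 1 to 10 kb and 7.40% at 100 to 1000 kb to 18.1% beyond 1000 kb (13 of 72, 95% interval 10.9 to 28.5%). In the narrowest it went from 0 of 435 within 1 kb, where 3 counts of 435 would be 0.690% and the upper Wilson bound was 0.875%, to 1.07% at 100 to 1000 kb and 2.22% beyond (2 of 90). The values beyond 1000 kb rest on few peaks in every width class. The order also held on chromosomes 1 to 5, from 1.21% to 9.02%, and on the other chromosomes, from 0.142% to 8.29%. Nearest to H3K4me3, these rested on 4 and 1 RUNX1 peaks. SMA4 peaks outside both lists also lay far from the mark, at the median of 270 kb given above, and how far the spread of the SMA4 list bears on this order was not tested.

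**Figure D3:**
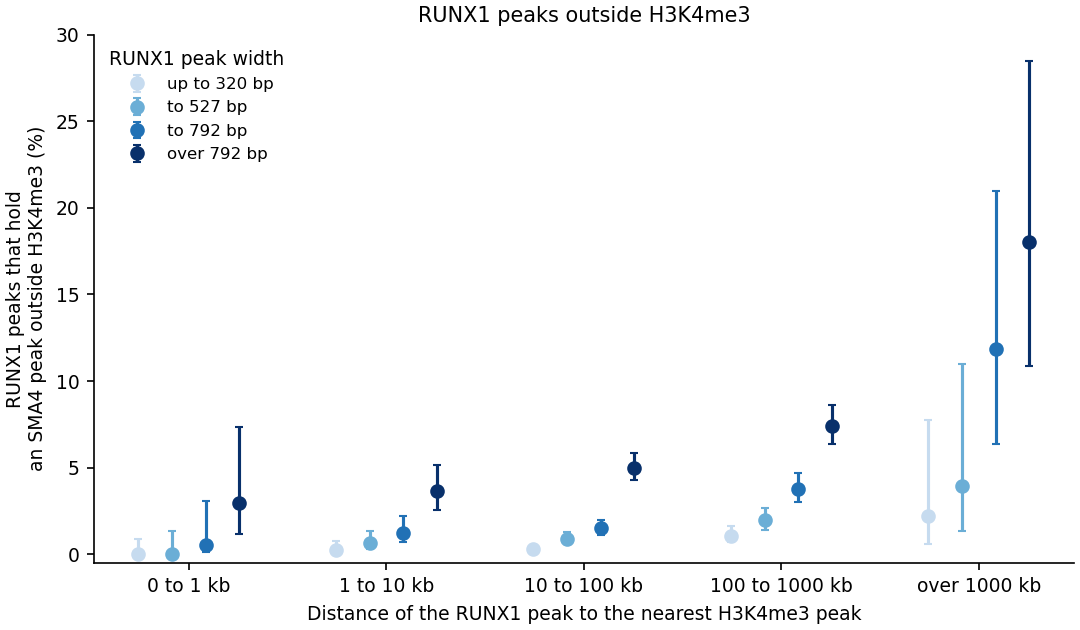
Share of RUNX1 peaks outside H3K4me3 that hold a RUNX1-only SMA4 peak (vertical axis, %, points with 95% Wilson intervals) by distance to the nearest H3K4me3 peak (horizontal axis) and by class of RUNX1 width (colours). Within each distance class the point of the widest RUNX1 peaks is highest, and shares rise to the right, to 18.1% of 72 peaks.

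RUNX1 peaks were also grouped with their neighbours, joining those at most 10 kb apart. RUNX1-only SMA4 peaks lay in single RUNX1 peaks in 225 of 662 cases (34.0%, 95% interval 30.5 to 37.7%), in groups of 2 to 4 in 281 (42.4%) and in groups of 5 or more in 156 (23.6%, 95% interval 20.5 to 26.9%). RUNX1 peaks outside H3K4me3 without SMA4 gave 37.7%, 42.7% and 19.5%, so the split was close to that background. Counted over RUNX1 peaks, 2.26% of single peaks, 2.45% of those in groups of 2 to 4 and 2.65% of those in groups of 5 or more held a member, with overlapping intervals (1.98 to 2.58% for single peaks and 2.23 to 3.14% for the largest groups). Fully isolated RUNX1 peaks, with neither another RUNX1 peak nor H3K4me3 within 50 kb, held a member in 98 of 2815 cases (3.48%, 95% interval 2.87 to 4.22%) against 504 of 22075 others (2.28%, 95% interval 2.09 to 2.49%). By this definition they also lay farther from H3K4me3, at a median of 181 kb against 40.5 kb. Isolation from other RUNX1 peaks and distance from the mark therefore cannot be told apart here. In all, 101 RUNX1-only SMA4 peaks (15.3%) stood in such isolation, beside 2815 of all 24890 RUNX1 peaks outside H3K4me3.

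RUNX1-only SMA4 peaks themselves were mostly single. When those at most 10 kb apart were joined, the 662 peaks gave 526 single peaks and 60 groups of 2 or more, which held 136 peaks (20.5%, 95% interval 17.6 to 23.8%). No background share was computed for this grouping, so 20.5% cannot be called low or high. Pairs made up 51 of the 60 groups, 5 held 3 peaks, 2 held 4, and 1 each held 5 and 6. Of the 60 groups, 39 spanned under 5 kb, and the median gap between neighbours within a group was 1.46 kb. No gap can exceed the joining distance of 10 kb, so short spans are in part set by the rule. In 16 of the 60 all members lay in 1 RUNX1 peak. Over all 635 RUNX1 peaks with a RUNX1-only SMA4 peak, 21 held 2 and 3 held 3, with midpoints a median of 770 bp apart (quartiles 624 and 1097 bp). In 47 of the 60 groups every member lay 10 kb or more from H3K4me3 (78.3%, 95% interval 66.4 to 86.9%). Counted over single peaks, 86.0% of all RUNX1-only SMA4 peaks and 81.0% of RUNX1 peaks without SMA4 did. The share of groups requires all members of a group to pass, so it is a stricter measure than these. An H3K4me3 peak lay inside 5 groups. By distance, the share of members in groups was 23.7% within 1 kb of H3K4me3 (9 of 38) and 41.8% at 1 to 10 kb (23 of 55). It was 13.6% at 10 to 100 kb, 22.4% at 100 to 1000 kb and 14.8% beyond (4 of 27). Each member of a group was counted, so these shares rest on fewer groups than members and are descriptions only.

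The richest group, on chromosome 3 from 35689942 to 35706247, held 6 RUNX1-only SMA4 peaks in 16.3 kb. They were 184, 277, 644, 648, 440 and 183 bp wide from left to right and lay in 5 of the 9 RUNX1 peaks of that stretch. The largest of these RUNX1 peaks, 2753 bp, held 2 of them, both nearer its edges than its centre (0.92 and 0.71 on the scale from centre to edge). It also contained a 227 bp H3K4me3 peak, 0.615 kb from the nearest member. To the left, 3.53 kb from the first member, lay an H3K4me3 peak of 5905 bp. Within 50 kb the stretch had 19 RUNX1, 14 SMA4 and 3 H3K4me3 peaks.

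The second group held 5 peaks in 12.6 kb on chromosome 1 from 198999139 to 199011704. They lay in 3 RUNX1 peaks of 4815, 2871 and 2936 bp, which held 2, 2 and 1 of them. The H3K4me3 peak nearest to 4 of the 5 was 179 bp wide, and a 297 bp peak lay 0.117 kb from the first. No other SMA4 peak lay between them. The third, on chromosome 1 from 158360194 to 158370777, held 4 peaks at 32.6 to 42.9 kb from H3K4me3. Of these, 3 lay in a RUNX1 peak of 3383 bp, the middle one 14.5 bp from its midpoint. The fourth, on chromosome 2 from 182165421 to 182171846, held 4 peaks in RUNX1 peaks of 3361 and 6562 bp around a 275 bp H3K4me3 peak.

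**Figure D4:**
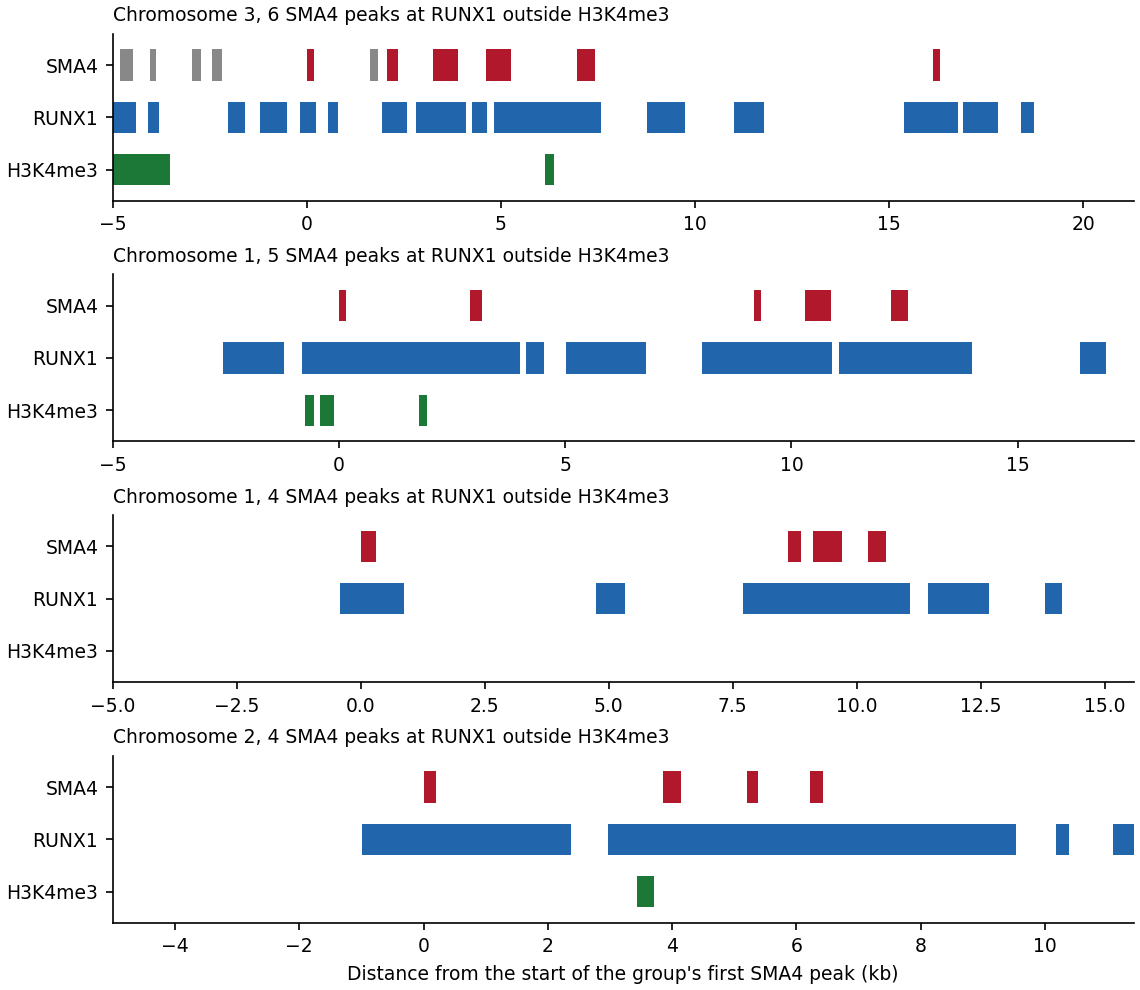
Peaks of the 4 richest groups, from 5 kb before the first to 5 kb after the last RUNX1-only SMA4 peak (horizontal axis, kb from the start of the first), with 1 row per list and bars to scale. RUNX1-only SMA4 peaks are red, other SMA4 peaks grey, RUNX1 blue and H3K4me3 green. The third group shows 4 red bars and no H3K4me3 peak, and the second shows its H3K4me3 peaks toward its left end.

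The groups farthest from H3K4me3 among the 10 richest held 2 or 3 peaks. On chromosome 6 from 130069397 to 130071238, 3 SMA4 peaks of 547, 244 and 331 bp lay side by side in 1 RUNX1 peak of 1967 bp, 268 kb from H3K4me3. The middle peak was 16.5 bp from the RUNX1 midpoint. On chromosome 8 from 16404866 to 16409043, 3 peaks lay in RUNX1 peaks of 2202 and 1138 bp, 236 kb from the mark. On chromosome 2 from 162849033 to 162851076, 3 peaks lay 323 kb from it, in a stretch with 7 SMA4 and 7 RUNX1 peaks within 50 kb. On chromosome 5 from 51799589 to 51801469, 2 wide peaks of 706 and 863 bp lay at opposite ends of a RUNX1 peak of 1252 bp, 282 kb from H3K4me3, and both ran past its ends. The 2 remaining groups of 3 were on chromosome 3 from 151911129 to 151922444 and on chromosome 5 from 96152438 to 96171832. In the first, 4 other SMA4 peaks lay between the members, and 2 of the 3 members overlapped RUNX1 by under 20% of their width. In the second, the 3 members lay in 3 RUNX1 peaks of 2391, 1321 and 916 bp and were 0.027 to 19.1 kb from H3K4me3.

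SMA4 peaks with H3K4me3 were also counted around the RUNX1-only SMA4 peaks. No background share was computed for these counts, so they cannot be called low or high. Of the 662, 17 lay within 10 kb of an SMA4 peak that overlapped both RUNX1 and H3K4me3 (2.57%, 95% interval 1.61 to 4.07%), and 47 lay within 50 kb (7.10%, 95% interval 5.38 to 9.31%). Any other SMA4 peak was found within 10 kb of 166 (25.1%), likewise without a background share. No H3K4me3 peak lay within 50 kb of 418 (63.1%, 95% interval 59.4 to 66.7%), against 50.1% of RUNX1 peaks outside H3K4me3 without SMA4 and 82.3% of SMA4 peaks outside both lists.

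The peaks were spread unevenly over the chromosomes. Chromosome 1 held the most, 83 (12.5%), followed by chromosome 2 with 72 and chromosomes 3 and 5 with 55 and 54. Chromosomes 1 to 5 held 46.7% of the RUNX1-only SMA4 peaks and 33.6% of the RUNX1 peaks outside H3K4me3. Chromosomes 16, 17, 19 and 22 held 4.53% and 14.2%. These 2 sets of chromosomes were chosen after the counts had been seen. Of the RUNX1 peaks outside H3K4me3, 4.96% held a member on chromosome 18 (20 of 403, 95% interval 3.24 to 7.54%), 4.23% on chromosome 5 (48 of 1134, 95% interval 3.21 to 5.57%) and 3.96% on chromosome 4 (43 of 1087). The lowest shares were 0.428% on chromosome 17 (6 of 1403, 95% interval 0.196 to 0.930%) and 0.683% on chromosome 19 (5 of 732). The whole SMA4 list was spread in the same way, with 44.8% on chromosomes 1 to 5 and 5.63% on chromosomes 16, 17, 19 and 22. RUNX1-only peaks made up 49.1% of SMA4 peaks on chromosome 1 (95% interval 41.7 to 56.6%) and 29.2% on chromosome 17 (7 of 24, 95% interval 14.9 to 49.2%). RUNX1 peaks outside H3K4me3 lay a median of 131 kb from the mark on chromosome 18 and 14.8 kb on chromosome 19. The share with a member did not follow this distance on every chromosome: it was 1.92% on chromosome 10 (median 75.2 kb) and 1.26% on chromosome 9 (60.8 kb), but 2.91% on chromosome 1 (46.5 kb).

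**Figure D5:**
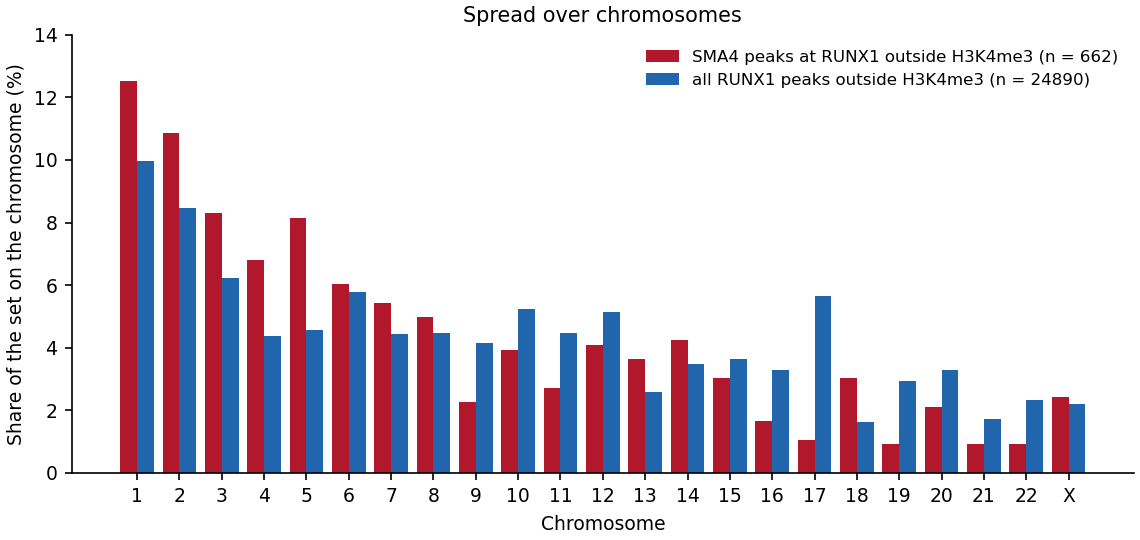
Share of each set (vertical axis, %) on each chromosome (horizontal axis) for the 662 RUNX1-only SMA4 peaks (red bars) and all 24890 RUNX1 peaks outside H3K4me3 (blue bars). Red bars exceed blue bars on chromosomes 1 to 8, 13, 14, 18 and X, and on chromosome 17 the red bar is 1.06% against 5.64%.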

How the data were processed

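Per the file headers, the authors called the RUNX1 and H3K4me3 peaks with MACS2 (batch 2) and the SMA4 peaks with cutruntools from fragments of all lengths, keeping q under 0.01 (batch 3). MACS2, SEACR and hg19 appear in the submitters' processing notes. The sources used here give neither the aligner, nor versions, nor the threshold of the first 2 lists. The deposited lists hold 4 columns (chromosome, start, end, name) and no read count, signal or score, so depth is unknown. Coordinates are hg19, written 1-based.

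Peaks overlapped when they shared at least 1 bp. Where an SMA4 peak overlapped 2 RUNX1 peaks, the RUNX1 peak sharing more bases was used. Shares carry 95% Wilson intervals and medians 95% order-statistic intervals. Neighbours at most 10 kb apart were joined. Interval functions were tested on simulated peaks (Python 3.11.15, numpy 2.4.6, scipy 1.17.1). Named peaks are the 10 richest groups, the 10 widest members, the 10 in the widest RUNX1 peaks, the 5 nearest to and 5 farthest from H3K4me3, and those at the edge of the rule. Members, gene lists and rules were chosen with earlier results of these data known. Gene lists, gene distances and motifs were planned but not run, since an hg19 annotation and genome were not used here.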

Additional observations from a re-analysis of the deposited data

How the results depend on the processing

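Alternative settings were tried for the number of RUNX1-only SMA4 peaks, their distance to H3K4me3, grouping, width and place in the RUNX1 peak. In 23 of 24 cases the value stayed within its interval or, for the number of peaks, within 1.5 times the 662 reported. The number ranged from 594, with no H3K4me3 peak within 5 kb, to 664, with all sequences in the files. It was 626 with at least 50% of the SMA4 peak inside RUNX1 and 623 where the RUNX1 peak also had to avoid H3K4me3, a setting added after the data were seen. The median distance to H3K4me3 ranged from 95.1 to 108 kb. The exception was the share of peaks in groups of 2 or more, which was 15.7% (95% interval 13.1 to 18.7%) when peaks were joined at 5 kb in place of 10 kb (20.5%), since fewer gaps then pass. It was 22.7% at 20 kb. Settings for gene bodies, gene starts and motifs were not run. No paired analysis was possible because each antibody has 1 library. Lists without scores leave the strength and depth behind each peak unknown.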
